A study of Homo sapiens with 3 samples.

Results

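Of 17232 regions in the deposited lists, 27 (0.157%) lay at 3 gene loci that make abundant RNAs. The loci were NEAT1, MALAT1 and VMP1 with its embedded microRNA gene MIR21. The regions came from chromatin immunoprecipitation sequencing (ChIP-seq) in DU145, an established prostate cancer cell line grown from a brain metastasis. A region was taken when it overlapped a gene span on hg19, extended by 5 kb on each side. The spans were NEAT1 at chr11:65190269-65213011, MALAT1 at chr11:65265233-65273940, VMP1 at chr17:57784863-57919616 and MIR21 at chr17:57918627-57918698. With the MIR21 window in place of the whole VMP1 span, 18 regions would be left. The loci were chosen from earlier results on these lists, in which some of their regions stood among the first listed, so list places and numbers of regions are given below as descriptions, without a test.

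The study has 3 libraries in 3 groups. ZMYND11 (BS69) was precipitated from parental DU145 cells, with ETS1 intact, and from DU145 cells in which ETS1 was knocked out. ETS2 was precipitated from ETS1-knockout cells. Whether the knockout cells were 1 clone is not given in the sources used here, and the ETS1 locus was not checked here. The parental ZMYND11 list held 536 regions, the knockout ZMYND11 list 15676 and the knockout ETS2 list 1020, and no region was wider than 502 bp. The lists carry positions only, with no height, p-value or read count, so the depth behind each region is unknown. With 1 library per group there is no replicate error for any value, and no marker levels against which the cell line could be checked. A region missing from a list is therefore not shown to be unbound, and a listed region is not independently shown to be bound. The list place is the line number of a region as deposited, in an order that the submitters' labels do not explain.

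NEAT1 and MALAT1 are long non-coding RNAs made from neighbouring genes and kept in the nucleus. NEAT1 is the scaffold of paraspeckles, and MALAT1 collects in nuclear speckles. MIR21 encodes miR-21, a microRNA that is raised in many cancers. It lies in the 3' part of VMP1, a gene for a membrane protein needed for autophagy, and its primary transcript can start from a promoter of its own inside VMP1. ETS proteins bind DNA sites built around the letters GGAA, and ETS1 and ETS2 are activated by Ras signalling. ZMYND11 reads a methylation mark on histone H3.3 in the bodies of transcribed genes and acts as a co-repressor. All of these genes lie on the plus strand, so positions below run 5' to 3' with the coordinates.

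The sequences that bear on the positions below were read from RefSeq (GRCh38.p14, a later build than that of the lists). The MIR21 product is shown because the earliest-listed regions lay just downstream of it. In the mature miRNA the capitals mark the seed, bases 2 to 8, and in the 72-base hairpin (chr17:59841266-59841337, plus strand) they mark the mature miRNA. Of 2545 mature miRNAs in the table, hsa-miR-590-5p was the other one with this seed.
hsa-miR-21-5p: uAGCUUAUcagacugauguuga
MIR21 hairpin: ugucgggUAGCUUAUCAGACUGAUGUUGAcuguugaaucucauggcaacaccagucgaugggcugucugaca

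The 250 bases before the annotated start of VMP1 and before the first annotated start of MALAT1 are shown because the VMP1 start used here carried a listed ZMYND11 region and the MALAT1 start used here carried none. Capitals mark GGAA on either strand (TTCC on the printed strand) and, in VMP1, the longer ETS site CCGGAAGT, which contains 1 of the GGAA matches. The VMP1 window is chr17:59707404-59707653 and the MALAT1 window chr11:65497488-65497737, both on the plus strand of GRCh38.p14.
VMP1 promoter: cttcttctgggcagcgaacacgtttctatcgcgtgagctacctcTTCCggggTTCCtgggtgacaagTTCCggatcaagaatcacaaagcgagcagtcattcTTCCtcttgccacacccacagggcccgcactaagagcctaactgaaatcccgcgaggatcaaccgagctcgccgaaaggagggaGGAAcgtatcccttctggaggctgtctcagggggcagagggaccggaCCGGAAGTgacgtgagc
MALAT1 promoter: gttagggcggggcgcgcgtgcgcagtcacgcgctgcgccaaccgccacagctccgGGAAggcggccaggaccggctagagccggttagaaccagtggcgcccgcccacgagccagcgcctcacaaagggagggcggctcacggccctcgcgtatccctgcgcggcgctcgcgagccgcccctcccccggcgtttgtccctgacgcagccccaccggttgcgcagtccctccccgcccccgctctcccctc

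The VMP1 window held 6 GGAA matches, 2 on the plus and 4 on the minus strand. Of 35116 RefSeq promoter windows of the same length, 92.7% held GGAA at least once, the median was 3 and 9.14% held 6 or more. The CCGGAAGT match lay 17 to 10 bases before the VMP1 start, and 3.42% of all windows held these letters on either strand. The printed MALAT1 window held 1 GGAA match. RefSeq lists a second MALAT1 start, and the window before it, not printed, held 4 GGAA matches, a number that 34.3% of all windows reached or passed. Neither MALAT1 window held CCGGAAGT. The AP-1 letters TGANTCA, which read the same on both strands, were in none of the VMP1 and MALAT1 windows and in 6.57% of all windows. These are matches of letters, not measured sites.

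NEAT1 was listed mainly for ETS2. The ETS2 list held 6 regions at this locus, the knockout ZMYND11 list held 2 and the parental ZMYND11 list held 1. Per 10 kb of the 32.7 kb window this was 1.83, 0.611 and 0.305 regions, in the same order. ETS2 regions thus outnumbered ZMYND11 regions from the same knockout cells, although the knockout ZMYND11 list as a whole was far longer than the ETS2 list.

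At the NEAT1 start the parental ZMYND11 list and the ETS2 list held nearly the same stretch. The parental ZMYND11 region was chr11:65190403-65190904, at place 145 of 536, and covered 134 to 635 bp after the transcript start. The ETS2 region was chr11:65190358-65190859, at place 49 of 1020, and covered 89 to 590 bp after the start. They overlapped by 457 bp, with midpoints 45 bp apart. The knockout ZMYND11 list held no region there: its nearest was 4.33 kb farther into the gene. Across the whole parental list 10.4% of regions overlapped a knockout ZMYND11 region and 3.36% an ETS2 region, so absence from the knockout ZMYND11 list was the usual case and the overlap with ETS2 was not. Of the 18 parental regions that overlapped an ETS2 region, 11 also overlapped a knockout ZMYND11 region and 7 did not, and among those 7 the NEAT1 region was the farthest from a knockout ZMYND11 region. The others were 0.0820 to 2.71 kb away.

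About 5 kb into NEAT1 the knockout ZMYND11 list and the ETS2 list each held a region, side by side and without overlap. The ZMYND11 region was chr11:65195232-65195732, at place 54 of 15676 and 22.9% of the way along the transcript. The ETS2 region was chr11:65195861-65196361, at place 26 of 1020 and 25.7% of the way along. A gap of 128 bp separated them, and their midpoints were 629 bp apart. Both were the earliest-listed NEAT1 region of their own list. The parental ZMYND11 list held none there.

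The other 4 ETS2 regions of the locus stood toward the NEAT1 3' end, the first of them 12.0 kb farther on. They were chr11:65207907-65208403 at place 586, chr11:65210073-65210567 at place 639, chr11:65212331-65212831 at place 600 and chr11:65213553-65214051 at place 781. Their midpoints lay 78.6%, 88.2%, 98.1% and 103% along the transcript, the last of them 0.791 kb past the annotated end. All 4 fell in the later part of the ETS2 list, in contrast to the first 2 regions of the gene. The knockout ZMYND11 list held 1 region in this stretch, chr11:65211928-65212428, at place 822 and 96.3% of the way along. It overlapped the ETS2 region at place 600 by 98 bp. No list held a region in the 5 kb before the NEAT1 start.

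**Figure D1:**
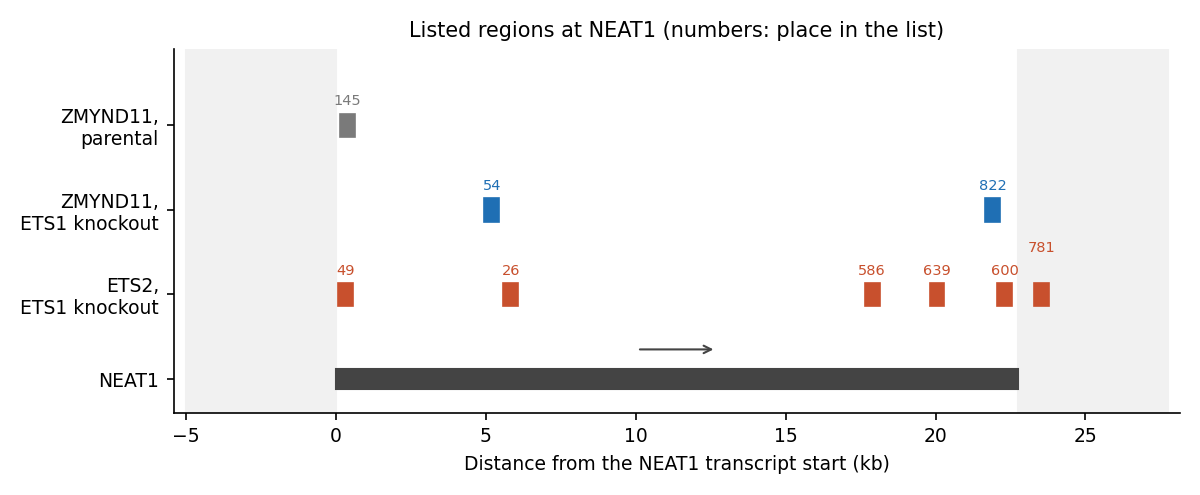
Regions of the 3 lists at NEAT1, drawn to scale against distance from the transcript start in kb (dark bar: gene span, arrow: direction of transcription, grey: the 5 kb flanks), with 1 row per library and the list place above each region. Parental ZMYND11 (place 145) and ETS2 (place 49) share the start. Knockout ZMYND11 has 2 regions farther in, and 4 of 6 ETS2 regions lie toward or just past the 3' end.

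Inside and before MALAT1 the ETS2 and knockout ZMYND11 lists held different stretches, and past its 3' end they overlapped. The ETS2 list held 4 regions, 3 of them inside the gene, and the knockout ZMYND11 list held 3, none of them inside. The parental ZMYND11 list held 0 of its 536 regions at MALAT1. Its nearest region was the one at the NEAT1 start, 74.3 kb before MALAT1.

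Inside MALAT1 the ETS2 regions were chr11:65267497-65267994 at place 172, chr11:65268736-65269233 at place 853 and chr11:65271130-65271628 at place 884. Their midpoints lay 28.9%, 43.1% and 70.6% along the transcript. The first began 2264 bp after the transcript start, so no list held a region on the start itself. The knockout ZMYND11 list held a pair of late-listed regions before the gene, chr11:65260105-65260603 at place 10267 and chr11:65261666-65262165 at place 13231, which ended 4630 and 3068 bp before the start. The former crossed the 5 kb limit of the window. The ETS2 regions inside the gene were 3.27 to 5.67 kb from the nearest knockout ZMYND11 region.

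Past the MALAT1 3' end both knockout lists held a region, and both placed it early. The ETS2 region was chr11:65274531-65275031, at place 6 of 1020, from 591 to 1091 bp past the annotated end. The ZMYND11 region was chr11:65274901-65275402, at place 13 of 15676, from 961 to 1462 bp past the end. They overlapped by 131 bp, with the ETS2 midpoint on the side of the gene. RefSeq lists TALAM1, an RNA read from the opposite strand of MALAT1, which reaches beyond the MALAT1 3' end. The gene table is on another build, so whether these regions lay at the start of TALAM1 was not determined here.

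**Figure D2:**
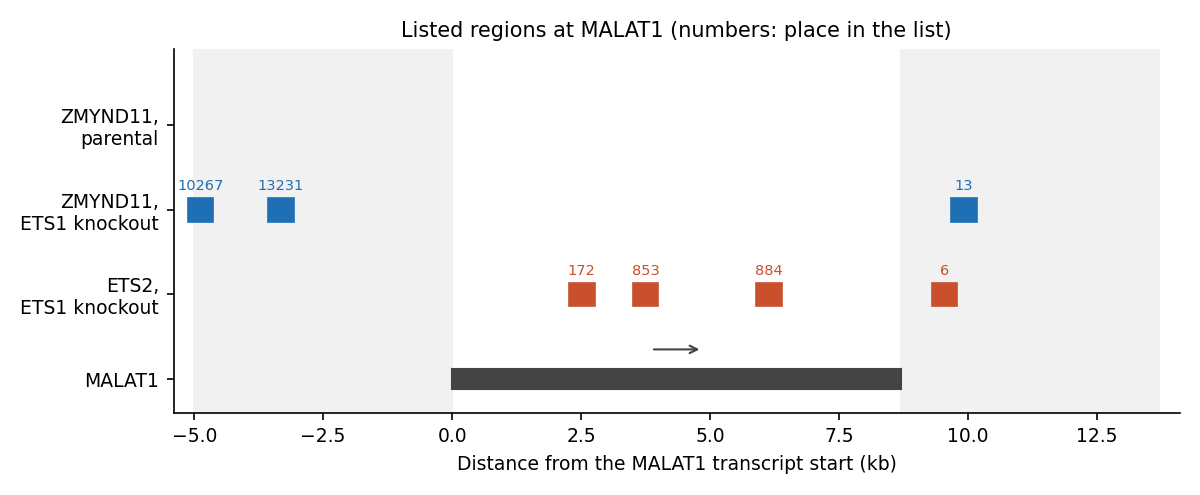
Regions of the 3 lists at MALAT1 against distance from the transcript start in kb (dark bar: gene span, grey: the 5 kb flanks), with 1 row per library and the list place above each region. ETS2 has 3 regions inside the gene and knockout ZMYND11 has none, while both have an early-listed region past the 3' end (places 6 and 13).

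At VMP1 knockout ZMYND11 regions outnumbered ETS2 regions, as they did in the whole lists (15676 against 1020). The knockout ZMYND11 list held 10 regions over the 145 kb window (0.691 per 10 kb). The ETS2 list held 1 (0.0691 per 10 kb) and the parental ZMYND11 list held 0. Over all windows of this length tiled on the lists, the means were 0.0533 per 10 kb for knockout ZMYND11 and 0.00346 for ETS2. Both knockout lists were thus denser here than their own mean, at a locus picked with early-listed regions known. Any window of this length with 1 ETS2 region exceeds the ETS2 mean, so for ETS2 the outcome was fixed by that choice. The nearest parental region was 752 kb before the gene. Of the 10 knockout ZMYND11 regions, 1 lay before the start, 8 had their midpoint inside the gene and 1 lay past the end.

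The VMP1 start was covered by a knockout ZMYND11 region, chr17:57784681-57785181, at place 3624 of 15676, which reached from 182 bp before to 318 bp after it. PTRH2 is the gene before VMP1 in RefSeq order. The gene table is on another build, so the distance of the region to PTRH2 was not determined here. The CCGGAAGT match printed above lies just before the RefSeq start of VMP1. The annotated starts of the builds may differ, so its distance to the region was not computed. The ETS2 list held no region at this start: its only region at the locus was 136 kb away. Farther upstream the knockout ZMYND11 list held chr17:57780052-57780531, at place 14284, the last-listed of its 15 members.

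Along the VMP1 body 7 further knockout ZMYND11 regions stood at 35.1 to 90.6% of the transcript, at places 2399 to 12124, with 0 ETS2 regions among them. The earliest-listed of these were chr17:57906704-57907189 at place 2399, chr17:57863968-57864462 at place 2752 and chr17:57860140-57860629 at place 5057. The region at place 2399 was also the last before MIR21, with its midpoint 11.7 kb before the start of the miRNA gene. No list held a region in the 5 kb before MIR21 or on MIR21 itself.

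Just downstream of MIR21 and of the VMP1 end, both lists from knockout cells held a region at place 3. The knockout ZMYND11 region was chr17:57920396-57920897, from 780 to 1281 bp past the VMP1 end, with its midpoint 2.02 kb after the MIR21 start. The ETS2 region was chr17:57920783-57921284, from 1167 to 1668 bp past the VMP1 end, with its midpoint 2.41 kb after the MIR21 start. They overlapped by 115 bp. Among regions of chromosome 17, each stood first in its list (of 1283 and 103 regions). The next genes in RefSeq order are the pseudogene RNU6-450P and then TUBD1, which encodes delta-tubulin.

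**Figure D3:**
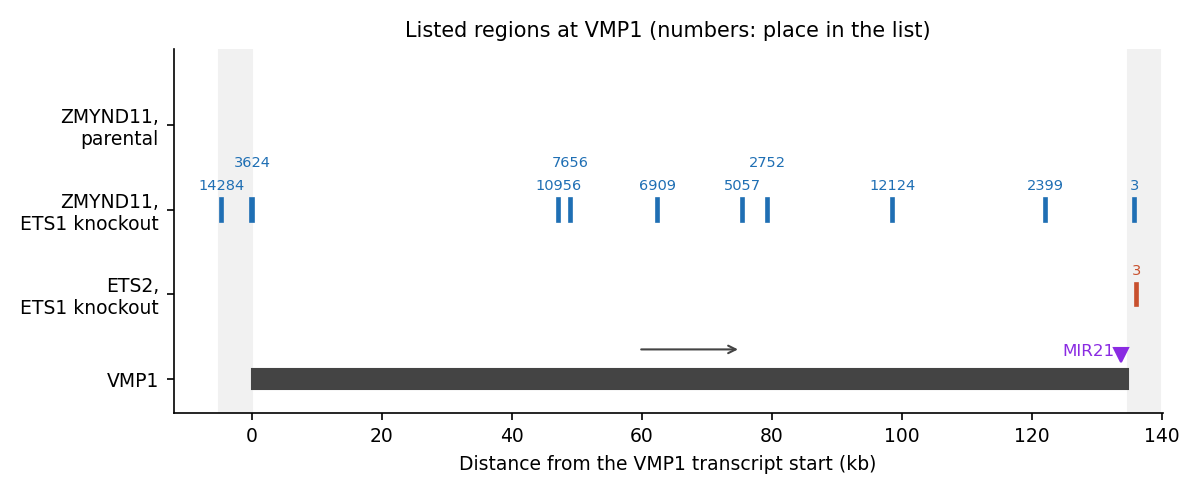
Regions of the 3 lists at VMP1 against distance from the transcript start in kb (dark bar: gene span, triangle: MIR21, grey: the 5 kb flanks), with 1 row per library and the list place above each region. Knockout ZMYND11 has 10 regions spread over the gene, and the ETS2 region and the earliest ZMYND11 region (both at place 3) sit together past the 3' end.

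ETS2 regions just past an annotated 3' end were a feature that the 3 loci had in common. The loci were chosen with some of their early-listed regions known, so this is a description only. Each locus had 1 ETS2 region with its midpoint past the end, at 0.791 kb for NEAT1, 0.841 kb for MALAT1 and 1.42 kb for VMP1. The knockout ZMYND11 list had such a region at MALAT1 (1.21 kb) and VMP1 (1.03 kb), and at NEAT1 its last region lay 0.833 kb before the end. The list places differed: the ETS2 regions past MALAT1 and VMP1 were at places 6 and 3, and that past NEAT1 was at place 781. How often other genes had a region past their 3' end was not analysed here, for want of an hg19 annotation.

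Where ETS2 and knockout ZMYND11 met at these loci, they met at their edges. Of the 11 ETS2 regions, 3 overlapped a knockout ZMYND11 region (27.3%, 95% exact binomial interval 6.02 to 61.0%), against 57.1% of the whole ETS2 list. With a reciprocal overlap of 50% the number was 0 of 11, which allows a share of up to 27.3%, against 41.7% of the list. With midpoints within 1000 bp it was 4 of 11 (36.4%, interval 10.9 to 69.2%), against 71.9%. Regions at 1 gene are not independent, the loci were picked from these lists, and the intervals and limit cover counting error only. They therefore do not test a difference from the whole list. The 3 overlapping pairs had midpoints 403, 370.5 and 387 bp apart at NEAT1, MALAT1 and VMP1. Over all 582 overlapping ETS2 regions, the 3 members included, the median distance was 138 bp (quartiles 56.5 and 258 bp). Of these, 9.79% were 370.5 bp or more apart. That cutoff was the smallest distance of the 3 member pairs, so all 3 pass it by construction. The ETS2 midpoint was the farther downstream at NEAT1 and VMP1 and the farther upstream at MALAT1.

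The ETS2 members were spread over both the first and the last 50% of their list. Of 11, 4 stood in the first 10% (places 3, 6, 26 and 49) and 1 was at place 172. The other 6 stood in the last 50% (places 586 to 884, or 57.5 to 86.7% of the list). The first 50% of the whole ETS2 list overlapped knockout ZMYND11 in 67.3% of regions and the last 50% in 46.9%. Among the members 2 of 5 did so in the first 50% and 1 of 6 in the last 50%. The 15 knockout ZMYND11 members also ranged widely, with 4 in the first 10% (places 3, 13, 54 and 822), and 5 past the first 50%. Their median place was 5057, or 32.3% of the list.

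**Figure D4:**
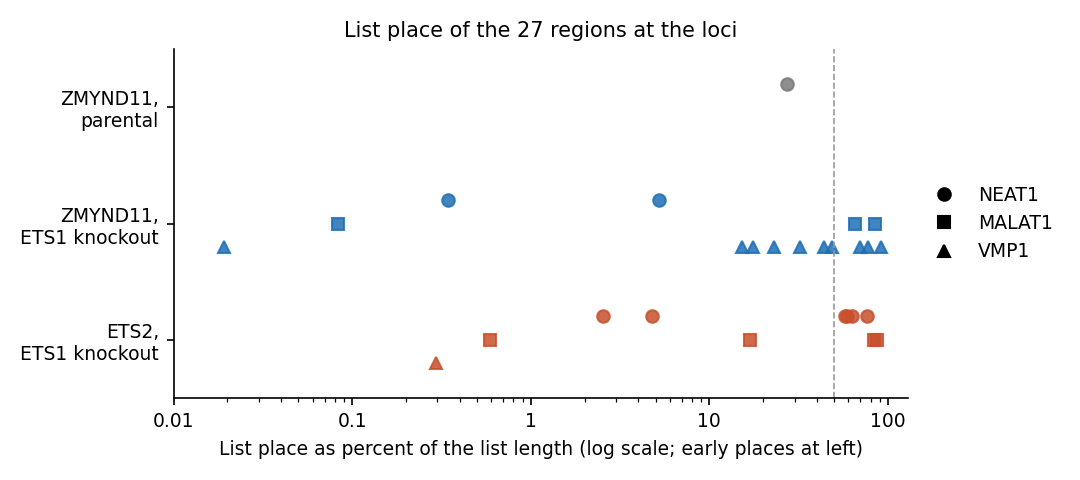
Place of each of the 27 regions as a percent of the length of its list (log scale, early places at the left, dashed line at 50%), with 1 row per library and 1 symbol per locus. Within each of the knockout lists the earliest places belong to the regions past the VMP1 and MALAT1 ends, and 6 of 11 ETS2 regions lie past the 50% line.

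ETS2 regions were dense at NEAT1 and MALAT1 compared with the rest of the genome covered by the lists. They made up 10 of the 17 ETS2 regions between 65 and 66 Mb of chromosome 11, against 5 of 70 knockout ZMYND11 regions, and the single parental ZMYND11 region of that megabase was the one at the NEAT1 start. The span of the lists was also tiled with windows of each locus's length. None of 89744 windows of the NEAT1 length (0%) held 6 ETS2 regions, the most being 5, whereas 4.09% held at least the 2 knockout ZMYND11 regions seen there and 0.582% held a parental one. The tiles were cut without regard to genes, and NEAT1 itself can be split between them. Most of them, 81281, held no region of either knockout list. The loci were picked with these numbers known and their windows were placed on the genes, which favoured a high rank among the tiles. Shifting the tiles by 50% of their length, an alternative chosen after seeing the data, gave 1 such window for ETS2. Whether that window lay on NEAT1 is not given here. For windows of the MALAT1 length, 0.00127% held at least 4 ETS2 regions and 0.929% at least 3 knockout ZMYND11 regions. At the VMP1 length 1.21% held at least 10 knockout ZMYND11 regions and 3.59% at least 1 ETS2 region.

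An excess of ETS2 over knockout ZMYND11 was also seen in part of the tiled windows picked for their ETS2 number, a choice that favours such an excess. Of 25 tiled windows of the NEAT1 length with 3 or more ETS2 regions, these outnumbered the ZMYND11 regions in 48.0%. At the MALAT1 length it was 68.8% of 16 windows. With 2 or more ETS2 regions it was 26.9% of 130 windows and 46.2% of 119, in the same order. Tiles on NEAT1 and MALAT1 were not left out. The shares depended on the tiling. With tiles shifted by 50% of their length and 3 or more ETS2 regions, they were 34.4% of 32 windows and 89.5% of 19, in the same order. Close spacing was more frequent among the ETS2 members than in their list: 8 of 11 (72.7%) had another ETS2 region within 5 kb, against 20.7% of all ETS2 regions, at loci picked with these numbers known. For knockout ZMYND11 it was 8 of 15 (53.3%) against 48.5%, a share near that of the list. Neighbouring ETS2 regions were a median of 2.26 kb apart at NEAT1 and 2.39 kb at MALAT1, and neighbouring knockout ZMYND11 regions at VMP1 13.3 kb.

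**Figure D5:**
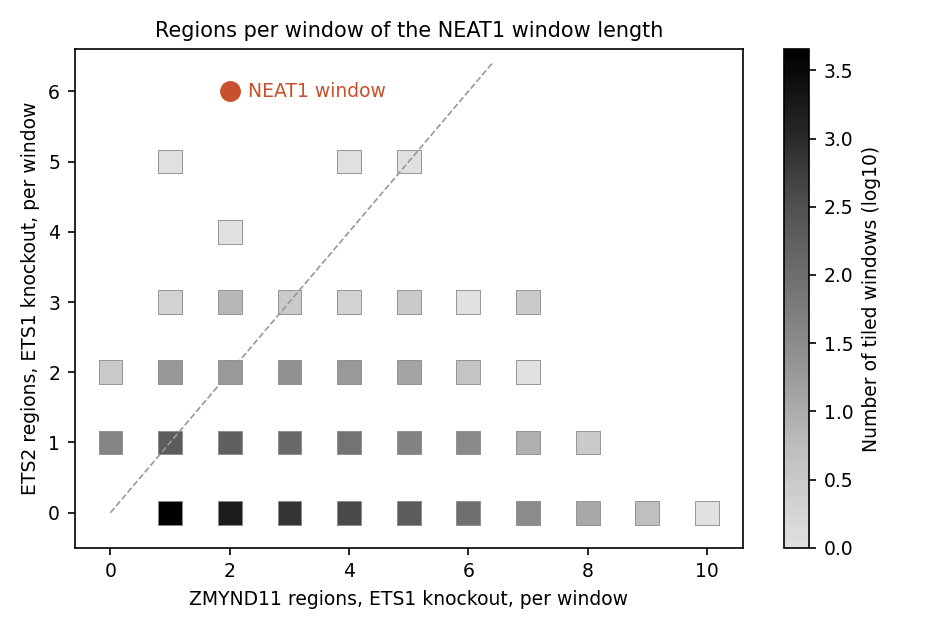
Number of ETS2 regions against number of knockout ZMYND11 regions in each tiled window of the NEAT1 window length (grey squares, darker for more windows on a log10 scale; windows with neither are left out; dashed line: equal numbers), with the window placed on NEAT1 as a red point. NEAT1, with 6 ETS2 and 2 ZMYND11 regions, lies above every tiled window drawn, of which the highest hold 5 ETS2 regions. With tiles shifted by 50% of their length, not drawn, 1 window held 6. NEAT1 itself can be split between tiles. It was picked with these numbers known, and its window was placed on the gene.

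The 5 kb limit of the windows left few regions at its edge. Just inside it were the knockout ZMYND11 region at place 10267 before MALAT1, which straddled the limit, and that at place 14284 before VMP1, 4332 bp from the gene. Just outside were knockout ZMYND11 regions 6.91 kb after VMP1 (chr17:57926528-57927018, place 5628), 10.7 kb before VMP1 (chr17:57773651-57774151, place 2075) and 11.1 kb before MALAT1 (chr11:65253660-65254112, place 12091). The nearest ETS2 region outside the windows was 31.9 kb after MALAT1 (chr11:65305874-65306366, place 323).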

How the data were processed

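The read aligner Bowtie2 (2.0.6) and the build hg19 are named, without further detail, in the submitters' processing notes. The authors deposited 1 headerless list of genomic intervals per library, without scores or counts and in an unexplained order. For the region caller, its threshold, any control and the depth, nothing is given in the sources used here. Starts were read as counted from 1. Gene spans were those of the selection rule, without an hg19 annotation. Members and lists were chosen with earlier results of these data known.

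Regions met when they overlapped by at least 1 bp. Intervals are exact Clopper-Pearson intervals at 95%, and a count of 0 was given the limit of 3 counts. Windows of each locus's length were tiled over the span of the lists on each chromosome. No test was run, with 1 library per group. Named were all parental ZMYND11 and ETS2 regions at the loci, and of knockout ZMYND11 those that overlap them, the first and last along each locus and up to 5 of the earliest-listed. Overlap counting was checked on simulated lists, and of 200 regions planted on the 15676 knockout ZMYND11 regions, 200 were found again under each overlap rule. The planted regions were shifted by a distance set to meet the rule, so this checked the code and did not cover near misses. Gene names, neighbours and sequences came from RefSeq tables on GRCh38.p14. The planned density was counted by midpoints. Python 3.11.15, numpy 2.4.6, pandas 2.3.3, scipy 1.17.1 and matplotlib 3.10.9 were used.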

Additional observations from a re-analysis of the deposited data

How the results depend on the processing

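The numbers of regions at the loci (1 for parental ZMYND11, 15 for knockout ZMYND11, 11 for ETS2) stayed within 1.5 times under no flank, a flank of 10 kb, midpoints in the window and starts read as counted from 0. With the first 50% of each list the ETS2 number was 5 and the knockout ZMYND11 number 10, because fewer regions were used. The number of ETS2 members that met knockout ZMYND11 went from 3 to 0 with a reciprocal overlap of 50%, and was 4 with midpoints within 1000 bp and 3 with the first 1020 ZMYND11 regions. The parental region at NEAT1 met no knockout ZMYND11 region under any of the overlap rules run, and its place was 27.1% of the list or 19.0% among regions of chromosome 11. Of the other alternatives 1 moved: with shifted tiles, 1 window rather than 0 held as many ETS2 regions as NEAT1. No paired analysis was possible because each group has 1 library, and for the same reason no replicate could be left out. The unknown depth and calling threshold limit every statement on a missing region.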

Other observations

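The 42.2 kb between the NEAT1 and MALAT1 windows, which the selection left out, held 5 knockout ZMYND11 regions and 0 ETS2 or parental ZMYND11 regions. The ZMYND11 regions were chr11:65231453-65231951 at place 14449, chr11:65236815-65237304 at place 10613, chr11:65239407-65239907 at place 2404, chr11:65243976-65244474 at place 10266 and chr11:65253660-65254112 at place 12091. They were chosen after their positions were seen. With the exception of the region at place 2404, all stood past the first 50% of their list. RefSeq places FAUP4, a transcribed pseudogene, and the long non-coding RNA genes ENEMAL and LINC02736 between NEAT1 and MALAT1. From the NEAT1 start to the regions past the MALAT1 end, the listed ETS2 regions lay in or next to the 2 genes. The listed knockout ZMYND11 regions lay both there and between them. The knockout ZMYND11 list was far longer (15676 regions against 1020), so 5 against 0 does not show a difference in placement.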
